A study of Homo sapiens with 17 samples.

Results

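Gene expression was measured on 17 Affymetrix arrays of human breast cell lines, and the 44 genes described here encode the proteasome, the chambered protease that destroys ubiquitin-tagged proteins. They were chosen by symbol alone, as every gene of the deposited table named PSMA, PSMB, PSMC, PSMD, PSME, PSMF or PSMG followed by a number, out of 17687 genes in all, and each was read by 1 probe set. They comprise 19 genes of the 20S core particle (8 alpha and 11 beta subunits), 17 of the 19S regulatory particle (5 ATPases and 12 non-ATPase subunits), and 8 genes of activators, an inhibitor and assembly chaperones. PSMC5, PSMD7, PSMD13 and PSME2 were not analysed here.

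The labels describe MDA-MB-231, a triple-negative breast cancer line, and cells titled MCF10, the name of a family of non-malignant breast epithelial lines. All cells were seeded for 24 h and the treatments lasted 48 h. MDA-MB-231 cells received Maraviroc, a small-molecule drug, at its IC20 or IC50, or a compound coded DZH_2 at its IC20 or IC50, with 2 arrays per group, and the solvent groups DMSO and ethanol also had 2 arrays each. A single MDA-MB-231 array came from untreated cells. MCF10 cells had DZH_2 at IC20, DZH_2 at IC50, DMSO alone or no treatment, with a single array (n = 1) for each. IC20 and IC50 are by common usage the concentrations that inhibit by 20% and 50%; the sources used here give neither the readout nor the concentrations, so equal labels do not mean equal doses. Maraviroc was set against ethanol and DZH_2 against DMSO. No label ties a compound to its solvent. Established lines in culture lack the other cell types of a tumour, and in such bulk RNA fewer cells of a kind and less RNA per cell cannot be told apart.

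The 20S core is a barrel of stacked rings, in which alpha subunits gate the entrance and beta subunits carry the proteolytic sites. PSMB5, PSMB6 and PSMB7 hold the constitutive chymotrypsin-like, caspase-like and trypsin-like sites, and interferon-induced PSMB8, PSMB9 and PSMB10 replace them in the immunoproteasome, which shapes peptides for MHC class I. The 19S particle recognises ubiquitin chains, removes them and unfolds the substrate with its ring of ATPases, while PSME proteins form alternative caps. When proteasome activity falls, the transcription factor NFE2L1 is released from the endoplasmic reticulum and activates proteasome genes through antioxidant response elements, usually as a group, with small MAF proteins as partners.

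Values are log2 signals, so a difference of 1 is a 2-fold change of signal, and levels are compared only within a probe set. Nearly all members were well above background: in MDA-MB-231, PSMA8, a testis subunit, and PSMB11, the thymic beta subunit, lay near the negative controls in every group, and PSMB10 did so with Maraviroc IC50 alone. The 2 Maraviroc IC50 arrays stood apart from the other MDA-MB-231 arrays. Their interquartile range over all genes was 4.05 to 4.07, against 4.21 to 4.65 on the others, and they differed from each other by at least 1 in 34.1% of members and in 17.5% of all genes. In the other 5 replicated groups no member differed that much between replicates, and 1.66 to 5.47% of all genes did. The marker genes of the line labels were mixed: in MCF10 control arrays KRT5, S100A2, ITGB4 and TRIM29 were higher and ZEB1 and VIM lower than in MDA-MB-231, but CDH1, EPCAM and KRT14 lay near the negative controls and FN1, CDH2 and SPARC were higher. The cell line field of these 4 arrays names MDA-MB-231, and the titles were followed.

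With Maraviroc at IC50 individual proteasome genes moved in both directions. In the values as deposited, and with both treated arrays in the fit, falls but not rises were more frequent than among all genes. With limma fitted across all genes, 17 of the 44 members passed an adjusted p of 0.05 against ethanol, 4 higher and 13 lower, where 27.0% of all genes passed, 12% higher and 15.0% lower. The share of members that fell was 29.5% and the share that rose was 9.09%. The median difference over members was -0.39, against 0.11 over all genes. Without Maraviroc IC50 replicate 2 it was 0.11, against 0.08, so the downward lean of the members depended on that array. By particle, 2 of 19 core genes rose and 6 fell, 1 of 17 regulatory particle genes rose and 3 fell, and 1 of 8 assembly or activator genes rose and 4 fell.

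Among the alpha subunits of the core, PSMA5 rose most. Its log2 signals were 14.36 and 13.33 with Maraviroc IC50, against 11.77 and 11.52 with ethanol, a difference of 2.20 ± 0.32 (SE; 4.59-fold, limma adjusted p = 0.000297, n = 2 arrays each). Both treated arrays lay above every other MDA-MB-231 array in the series. PSMA2 and PSMA7, also of the alpha ring, went the opposite way. PSMA2 read 8.74 and 9.20 with Maraviroc IC50, against 10.26 and 10.41 with ethanol, and fell by 1.36 ± 0.30 (adjusted p = 0.0044). PSMA7 read 12.13 and 12.44, against 13.05 and 13.23 with ethanol, and fell by 0.85 ± 0.24 (adjusted p = 0.0204). Of the 5 other alpha genes none passed: PSMA1 read 11.28 and 9.33 with Maraviroc IC50, against 9.45 and 8.98 with ethanol, so that 1 array carried most of its difference of 1.09 ± 0.47 (adjusted p = 0.11). The differences of PSMA3, PSMA4, PSMA6 and PSMA8 were 0.62, 0.18, 0.03 and 0.84.

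In the beta ring all 3 interferon-inducible catalytic genes fell and none of their constitutive counterparts passed the test. PSMB8 read 8.44 and 9.15 with Maraviroc IC50, against 10.20 and 10.65 with ethanol, a fall of 1.63 ± 0.33 (3.10-fold, adjusted p = 0.00283). PSMB9 read 9.28 and 10.05, against 10.71 and 11.30 with ethanol, and fell by 1.34 ± 0.39 (adjusted p = 0.0227). PSMB10 read 6.35 and 5.63, against 6.69 and 7.28 with ethanol, and fell by 0.99 ± 0.32 (adjusted p = 0.037), ending near the negative controls. All 3 lay below both ethanol arrays on both treated arrays. However, PSMB10 on replicate 1 lay beside DMSO replicate 2, at 6.35, and above Maraviroc IC20 replicate 1, at 6.26. Likewise PSMB9 on replicate 2 lay beside DMSO replicate 1, at 10.09, and above DZH_2 IC20 replicate 1, at 9.53. For both genes the ethanol reference was the higher solvent, with means of 11.01 against 10.22 with DMSO for PSMB9 and 6.98 against 6.43 for PSMB10. Constitutive PSMB5 read 12.75 and 12.53 with Maraviroc IC50, against 12.32 and 12.32 with ethanol, a difference of 0.32 (95% interval -0.23 to 0.88, adjusted p = 0.4). For PSMB6 the difference was 0.19 (-0.42 to 0.80, adjusted p = 0.666) and for PSMB7 0.48 (-0.12 to 1.09, adjusted p = 0.234). Whether inducible and constitutive genes differed from each other in response was not tested. Elsewhere in the ring the structural subunit PSMB3 fell by 1.45 ± 0.35 (adjusted p = 0.00846), with 12.24 and 10.98 on the treated arrays, against 13.29 and 12.83 with ethanol. PSMB1 rose by 0.87 ± 0.25 (adjusted p = 0.0216), with 13.37 and 13.01, against 12.42 and 12.22 with ethanol. PSMB2, PSMB4 and PSMB11 differed by -0.57, 0.62 and -0.03 and did not pass.

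In the 19S particle the largest fall of any member was that of PSMD1, a scaffold subunit of the base. Its signals were 8.49 and 8.60 with Maraviroc IC50, against 11.14 and 11.21 with ethanol, a fall of 2.63 ± 0.29 (6.19-fold, adjusted p = 4.59e-05). The replicates of each group lay close together and far from the other group. Of the ATPases, PSMC3 fell by 1.98 ± 0.48 (adjusted p = 0.00867), though its treated arrays read 11.27 and 9.25, against 12.46 and 12.02 with ethanol. PSMC1 fell by 1.00 ± 0.32 (adjusted p = 0.0343), with 11.29 and 11.71 on the treated arrays, against 12.70 and 12.31 with ethanol. PSMD9, a chaperone of base assembly, was the regulatory particle gene that rose, by 1.24 ± 0.28 (adjusted p = 0.00573), with 10.68 and 10.63, against 9.55 and 9.28 with ethanol. The other base chaperones, PSMD5 and PSMD10, differed by -0.39 and -0.40 and did not pass. The remaining 11 genes of the particle did not pass either, with differences between -0.89 for PSMD12 and 1.00 for PSMD3. PSMD14, the deubiquitinase of the lid, was among them at -0.18 (95% interval -0.77 to 0.42, adjusted p = 0.692).

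Activators moved in opposite directions. PSME1, a subunit of the interferon-inducible 11S cap, read 10.01 and 10.95 with Maraviroc IC50, against 12.26 and 11.99 with ethanol, and fell by 1.65 ± 0.30 (adjusted p = 0.00141). PSME3, which forms the nuclear 11S cap, read 12.17 and 11.16, against 13.48 and 12.96 with ethanol, and fell by 1.56 ± 0.36 (adjusted p = 0.00596). PSME4, the large single-chain activator, rose instead by 1.24 ± 0.27 (adjusted p = 0.00424), with 11.30 and 11.87, against 10.34 and 10.35 with ethanol. Of the chaperones that build the alpha ring, PSMG1 and PSMG2 fell together. PSMG1 read 6.33 and 8.03, against 9.89 and 9.68 with ethanol, a fall of 2.61 ± 0.43 (6.10-fold, adjusted p = 0.000749). PSMG2 read 10.18 and 9.57, against 11.58 and 11.91 with ethanol, a fall of 1.87 ± 0.28 (adjusted p = 0.00036). PSMG1 thus fell on both treated arrays by unequal amounts. On replicate 1 it lay below the 75th percentile of that array's negative controls, 6.42. Inhibitor PSMF1 and chaperones PSMG3 and PSMG4 differed by -0.44, 0.42 and -0.58 and did not pass.

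**Figure D1:**
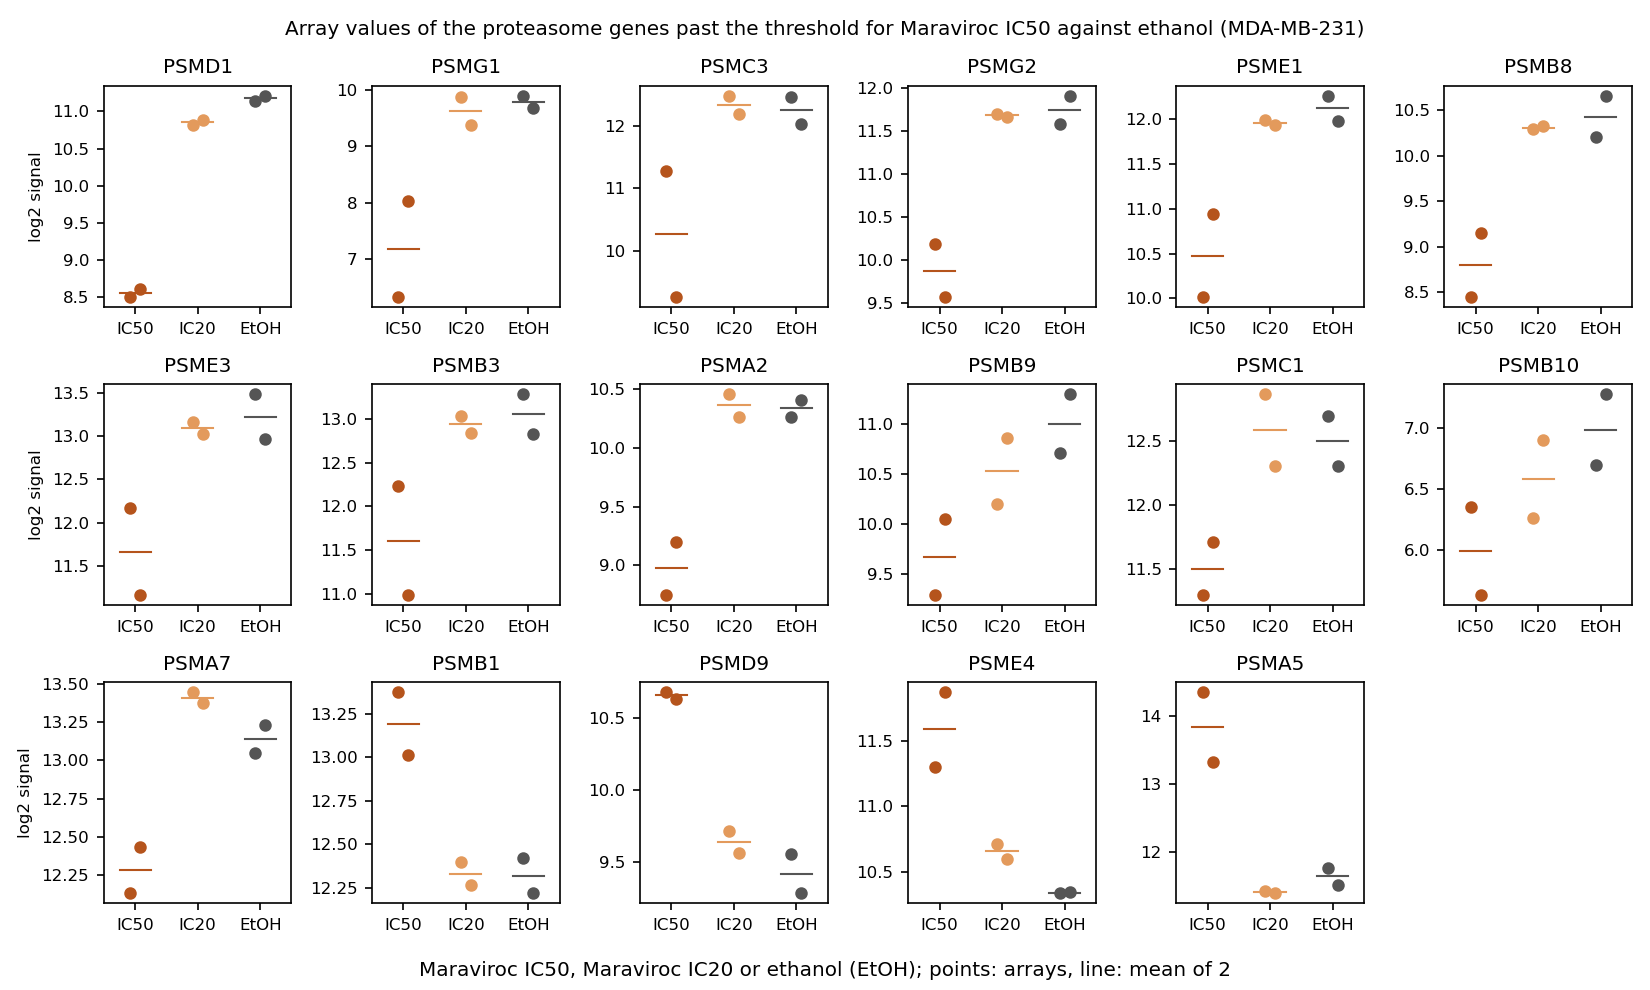
Log2 signal (y axis, a separate scale per gene) of the 17 proteasome genes past the threshold for Maraviroc IC50 against ethanol in MDA-MB-231, with arrays as points and means of 2 as lines, for Maraviroc IC50, Maraviroc IC20 and ethanol from left to right. PSMD1 lies at 8.49 and 8.60 with IC50, against 11.14 and 11.21 with ethanol, while the IC20 points lie near ethanol in most panels.

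These counts rest on a pooled spread and on replicates that differ. The 2 Maraviroc IC50 arrays stood on the same side of the ethanol mean in 33 members, 14 above and 19 below, and on opposite sides in 11. Replicate 1 was the higher array in 31 of the 44, and the medians over members were 0.11 on replicate 1 and -0.62 on replicate 2. PSMC4, PSMD2, PSMD11, PSMB2, PSMA1 and PSMC3 show the gap most, for example PSMC4 with 13.99 and 11.96, against 12.96 and 12.91 with ethanol. With replicate 1 left out the median over members was -0.62, against 0.08 over all genes, and with replicate 2 left out 0.11, against 0.08. Leaving out ethanol replicate 1 gave -0.20, against 0.13, and leaving out ethanol replicate 2 gave -0.23, against 0.08. With the 4 compared arrays alone 8 members passed, where 2399 of all genes did, against 4778 in the main fit. PSMD1, PSMA5, PSMG2, PSMG1, PSME1, PSMB8 and PSMA2 passed under all 13 alternatives. Between 1 and 3 alternatives took away the calls of PSME4, PSMD9, PSME3, PSMC3 and PSMB3. Calls were lost under 4 alternatives for PSMB9, 5 each for PSMA7 and PSMB1, 6 for PSMB10 and 7 for PSMC1, several of them where 1 array was left out. With each array centred on its median, the members split into 8 higher and 11 lower, since the median of all genes was then 0.28, against 0.11 as deposited.

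**Figure D2:**
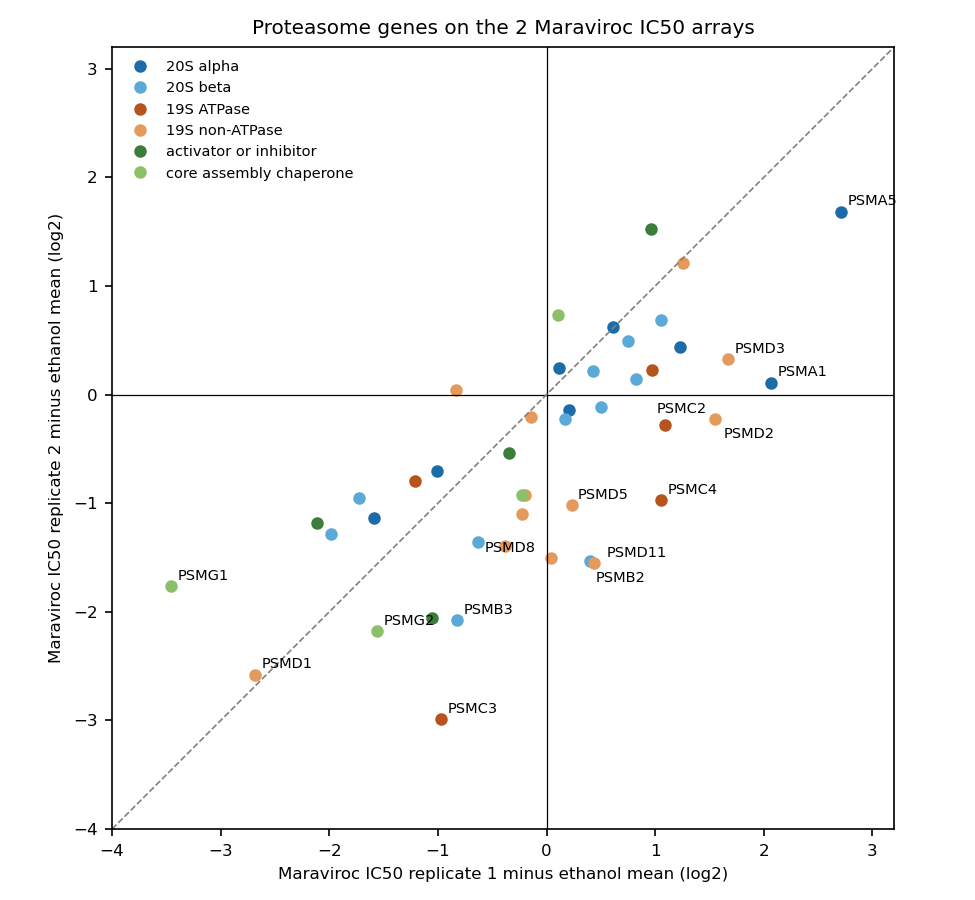
Log2 signal minus the ethanol mean for the 44 proteasome genes on Maraviroc IC50 replicate 1 (x axis) and replicate 2 (y axis), coloured by particle, with the dashed line marking equal values. PSMD1 and PSMA5 lie far from 0 on both arrays, and 11 genes lie on opposite sides of 0.

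Cell state markers moved on the same arrays. Of 8 mesenchymal markers, 5 fell with Maraviroc IC50, among them CAV1 by 3.89 and VIM by 1.52, and the log2 of the list's summed signal was 15.38 to 15.73, against 17.28 to 17.55 with ethanol. Of 7 breast epithelial markers, ITGB4 and EPCAM fell, and the summed signal was 7.87 to 8.39, against 9.57 to 10.83 with ethanol. CDH1, KRT5, KRT14 and TRIM29 lay near the negative controls in both groups. Their part in the proteasome result was not tested.

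Promoter sequences bear on whether the genes that moved share the element read by NFE2L1. Shown here are the 250 bases before the RefSeq start (GRCh38.p14), read along the gene's strand, of the risen genes PSMA5, PSMD9 and PSME4 and the fallen genes PSMD1, PSMG1 and PSMB9. Capitals mark every match to the antioxidant response element letters TGACNNNGC on either strand.
PSMA5, chr1:109426449-109426698, minus strand: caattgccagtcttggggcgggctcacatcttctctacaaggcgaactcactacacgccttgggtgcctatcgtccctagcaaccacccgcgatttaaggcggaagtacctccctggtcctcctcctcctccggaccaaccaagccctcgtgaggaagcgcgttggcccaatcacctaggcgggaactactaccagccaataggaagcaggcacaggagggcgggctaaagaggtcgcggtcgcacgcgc
PSMD9, chr12:121888540-121888789, plus strand: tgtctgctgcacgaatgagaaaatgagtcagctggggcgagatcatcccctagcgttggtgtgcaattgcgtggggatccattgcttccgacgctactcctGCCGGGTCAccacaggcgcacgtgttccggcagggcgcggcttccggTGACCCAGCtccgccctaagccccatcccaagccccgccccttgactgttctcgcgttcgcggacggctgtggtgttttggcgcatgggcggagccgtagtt
PSME4, chr2:53970994-53971243, minus strand: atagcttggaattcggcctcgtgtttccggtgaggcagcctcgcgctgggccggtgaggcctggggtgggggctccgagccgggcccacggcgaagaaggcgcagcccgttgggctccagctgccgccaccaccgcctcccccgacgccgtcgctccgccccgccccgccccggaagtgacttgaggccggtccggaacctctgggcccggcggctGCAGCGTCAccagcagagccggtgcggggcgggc
PSMD1, chr2:231056617-231056866, plus strand: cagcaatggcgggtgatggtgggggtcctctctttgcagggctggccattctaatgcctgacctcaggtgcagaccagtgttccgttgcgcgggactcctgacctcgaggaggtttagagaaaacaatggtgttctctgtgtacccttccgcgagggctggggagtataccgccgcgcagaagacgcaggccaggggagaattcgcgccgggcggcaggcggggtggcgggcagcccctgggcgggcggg
PSMG1, chr21:39183452-39183701, minus strand: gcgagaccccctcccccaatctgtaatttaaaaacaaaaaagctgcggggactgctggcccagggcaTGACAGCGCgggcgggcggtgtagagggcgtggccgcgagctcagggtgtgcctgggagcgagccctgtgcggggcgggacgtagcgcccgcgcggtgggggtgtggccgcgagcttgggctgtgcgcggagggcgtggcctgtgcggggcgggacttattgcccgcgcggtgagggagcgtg
PSMB9, chr6:32853942-32854191, plus strand: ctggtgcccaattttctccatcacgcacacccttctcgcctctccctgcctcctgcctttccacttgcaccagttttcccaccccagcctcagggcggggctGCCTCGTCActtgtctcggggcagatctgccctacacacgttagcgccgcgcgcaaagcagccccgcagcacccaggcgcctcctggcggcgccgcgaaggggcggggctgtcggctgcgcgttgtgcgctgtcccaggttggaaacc

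Counted back from the start, PSMD9 held 2 matches at positions -149 and -102, PSME4 held 1 at -34, PSMG1 1 at -183 and PSMB9 1 at -148. PSMA5 and PSMD1, the members with the strongest rise and fall, held none in this window. Over all members with a RefSeq promoter, 11 of 38 held the letters, 28.9%, against 15.1% of 14250 genes. They were found in 2 of 3 risen, 5 of 12 fallen and 4 of 23 other members, so genes moving in either direction carried them. CCAAT stood in 17 of 38 members, 44.7%, against 40.5% of all genes, and the heat shock letters GAANNTTC in 0 of 38, against 6.39%. The motifs were searched on both strands, and a match is not a binding site.

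Genes that work with the proteasome were read from 4 lists, chosen with earlier results of these data known. Their counts with Maraviroc IC50 stand beside 12% of all genes higher and 15.0% lower, and no list was tested as a set. In the NFE2L1 pathway, 3 of 11 genes rose and 2 fell with Maraviroc IC50, and the median difference was 0.54, against 0.11 over all genes. NFE2L1 itself averaged 13.50 ± 0.15 with Maraviroc IC50 and 13.51 ± 0.09 with ethanol (SD, n = 2 each), a difference of -0.01 (adjusted p = 0.982). SYVN1, the ubiquitin ligase of the endoplasmic reticulum that turns NFE2L1 over, rose by 2.74 ± 0.26 (adjusted p = 1.43e-05). The small MAF partners MAFG and MAFF rose by 2.34 and 1.48. NFE2L2, the related oxidative stress factor, fell by 1.33.

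Of 13 other subunits and partners, 2 rose and 3 fell, with a median of -0.05. UCHL5 and USP14, the deubiquitinases that bind the 19S particle, fell by 2.52 ± 0.49 and 1.08 ± 0.25. ZFAND2A, a zinc finger protein induced by arsenite that binds proteasomes, rose by 2.57 ± 0.35 (adjusted p = 0.000179) and PITHD1 by 1.66. Of 13 ubiquitin, activating enzyme and shuttle genes, 3 rose and 4 fell, with a median of -0.56. FAF1, an adaptor of the VCP unfoldase, fell by 3.71 ± 0.36 (adjusted p = 1.83e-05), the shuttles UBQLN1 and RAD23B fell by 1.21 and 1.24, and UFD1, another VCP cofactor, rose by 1.51.

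Class I antigen processing, which takes up the peptides of the immunoproteasome, had 3 genes higher and 2 lower of 12, with a median of -0.14. ERAP1 and ERAP2, which trim peptides in the endoplasmic reticulum, fell by 2.60 and 1.28, whereas B2M, the light chain of class I molecules, rose by 0.96. NLRC5, the class I transactivator, rose by 1.62 but stayed near the negative controls in both groups. TAP1, a chain of the peptide transporter, was singled out after its values were seen because its gene lies back to back with PSMB9 on chromosome 6, with 487 bases between the starts. It averaged 9.09 ± 0.67 with Maraviroc IC50 and 7.85 ± 0.62 with ethanol (SD, n = 2 each), a rise of 1.23 ± 0.37 (SE; adjusted p = 0.027), while PSMB9 fell. The TAP1 call was lost under 4 of 13 alternatives, among them without Maraviroc IC50 replicate 2, at 0.76, and without ethanol replicate 1, at 0.79. Each of the 4 lists held genes that rose and genes that fell, where 12% of all genes rose and 15.0% fell. Of the partner genes named, the call of B2M was lost under 5 of 13 alternatives, where its difference ran from 0.61 to 1.30, that of ERAP2 under 3, those of NFE2L2 and RAD23B under 2 each and those of USP14 and UFD1 under 1 each.

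At IC20, Maraviroc left the proteasome genes close to ethanol. No member passed the test, where 0% of all genes did, and 0 of 44 members and 309 of all genes had an unadjusted p under 0.05. Differences ran from -0.48 for PSMB9 to 0.31 for PSME4, with a median of -0.06. PSMB9 read 10.20 and 10.86 with Maraviroc IC20, against 10.71 and 11.30 with ethanol, and the groups overlapped. PSMB4, PSMG4 and PSMB10 had the smallest p, with differences of -0.36, -0.41 and -0.40. For PSMD1 and PSMA5 the IC20 arrays read 10.82 and 10.88, and 11.43 and 11.39.

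Set against IC20, Maraviroc IC50 again had 17 members past the threshold, 6 higher and 11 lower, where 26.7% of all genes passed, 11.9% higher and 14.8% lower. The comparison shares its treated arrays with the one against ethanol and adds no independent evidence on them. PSMD1 fell by 2.31 ± 0.29 (adjusted p = 0.000119) and PSMA5 rose by 2.43 ± 0.32 (adjusted p = 0.000143). PSMB4 and PSMD3, which had not passed against ethanol, were higher by 0.98 and 1.11, and PSMB9 and PSMB10, at -0.86 and -0.59, did not pass here. The count was 8 in a fit of the compared arrays alone, where 2632 of all genes passed, against 4719 in the main fit. The members' median was -0.20, and it was -0.13 without Maraviroc IC20 replicate 1 and -0.17 without its replicate 2. Over all genes it was 0.11 each time. Over 12 alternatives the calls of PSMB4 and PSMD3 were lost under 3 and 4.

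DZH_2 lowered few proteasome genes past the threshold in MDA-MB-231, but most members leaned down. At IC20, 1 member passed, PSMD14, where 0.871% of all genes passed (0.435% lower), and at IC50, 2 did, PSMD1 and PSMD14, where 1.57% passed (0.984% lower). None rose at either dose, where 0.435% and 0.582% of all genes did. At both doses 35 of 44 members had a lower mean than DMSO, against 8887 of 17687 genes at IC20 and 8164 at IC50. The members' medians were -0.24 at IC20 and -0.40 at IC50, against -0.0022 and 0.04 over all genes. Both doses were set against the same 2 DMSO arrays.

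PSMD14 removes ubiquitin chains from substrates at the 19S lid. Its log2 signals were 10.37 and 9.73 with DZH_2 IC20 and 10.05 and 10.22 with DZH_2 IC50, against 11.47 and 11.39 with DMSO. It fell by 1.38 ± 0.28 at IC20 (2.60-fold, adjusted p = 0.0404) and by 1.30 ± 0.28 at IC50 (2.46-fold, adjusted p = 0.0398). All 4 treated arrays lay below both DMSO arrays and below the untreated array at 11.29. With Maraviroc IC50 the same gene read 10.73 and 10.66, against 11.06 and 10.68 with ethanol, groups that overlapped. Both ethanol arrays themselves lay below both DMSO arrays and the untreated array, so the compounds were read from unlike baselines. The Maraviroc IC50 arrays also lay below DMSO and untreated.

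PSMD1 read 10.81 and 9.90 with DZH_2 IC20 and 9.94 and 9.77 with DZH_2 IC50, against 11.35 and 11.15 with DMSO. It fell by 1.39 ± 0.29 at IC50 (2.62-fold, adjusted p = 0.0398), and its difference at IC20 was -0.89 (adjusted p = 0.209). PSMG1, the alpha ring chaperone, had the largest difference of any member and did not pass. It read 8.77 and 8.27 with IC20 and 7.97 and 8.17 with IC50, against 9.93 and 9.92 with DMSO, differences of -1.40 ± 0.43 (adjusted p = 0.172) and -1.85 ± 0.43 (adjusted p = 0.0545). PSMA2, an alpha subunit, differed by -0.95 at IC20 and PSMG4, another alpha ring chaperone, by -0.87 at IC50, neither past the threshold.

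None of the catalytic genes passed the test at either dose. On all 4 DZH_2 arrays PSMB7 lay below both DMSO arrays and PSMB10 above both. At IC50 the members' median was -0.40. PSMB5, PSMB6 and PSMB7 differed by -0.30, -0.42 and -0.44 at IC50, and PSMB8, PSMB9 and PSMB10 by -0.10, 0.04 and 0.40, with adjusted p of 0.502 or more. For PSMB8 the 95% interval ran from -0.81 to 0.62. The activators PSME1, PSME3 and PSME4 differed by 0.24, -0.17 and 0.15. All 5 ATPases had lower means at IC50, between -0.95 for PSMC3 and -0.35 for PSMC4, and none passed. Among the 49 genes of the 4 partner lists, TAPBP, which helps load class I molecules, rose by 1.60 ± 0.32 at IC50 (adjusted p = 0.0346) and no other passed at either dose. Of the markers, CAV1 fell by 1.63 at IC20 and 1.69 at IC50, and its part in the result was not tested.

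The DZH_2 calls were fragile, though the differences kept their direction. Both IC50 calls were lost with any 1 of the 4 compared arrays left out, with quantile normalization and with an eBayes trend on level. At IC20 the PSMD14 call was lost without DMSO replicate 1, without DMSO replicate 2 and without DZH_2 IC20 replicate 2. It was also lost with the trend and with the compared arrays alone. The fits that lost these calls by leaving out an array also called far fewer of all genes. Over 14 alternatives the IC50 difference ran from -1.49 to -1.29 for PSMD1 and from -1.39 to -1.05 for PSMD14. The IC20 difference of PSMD14 ran from -1.70 to -1.06. PSMG1 passed at IC50 with the low-signal filter, with array weights, with the compared arrays alone, without the Maraviroc IC50 arrays and with all 5 control arrays. The TAPBP call was lost without any 1 of the 4 compared arrays and with all 5 control arrays, and its difference ran from 0.90 to 1.78 over 14 alternatives. Between the doses no member differed past the threshold in limma, where 0% of all genes did, and 1 member and 721 of all genes had an unadjusted p under 0.05. PSMD1, at -0.50, had overlapping arrays.

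**Figure D3:**
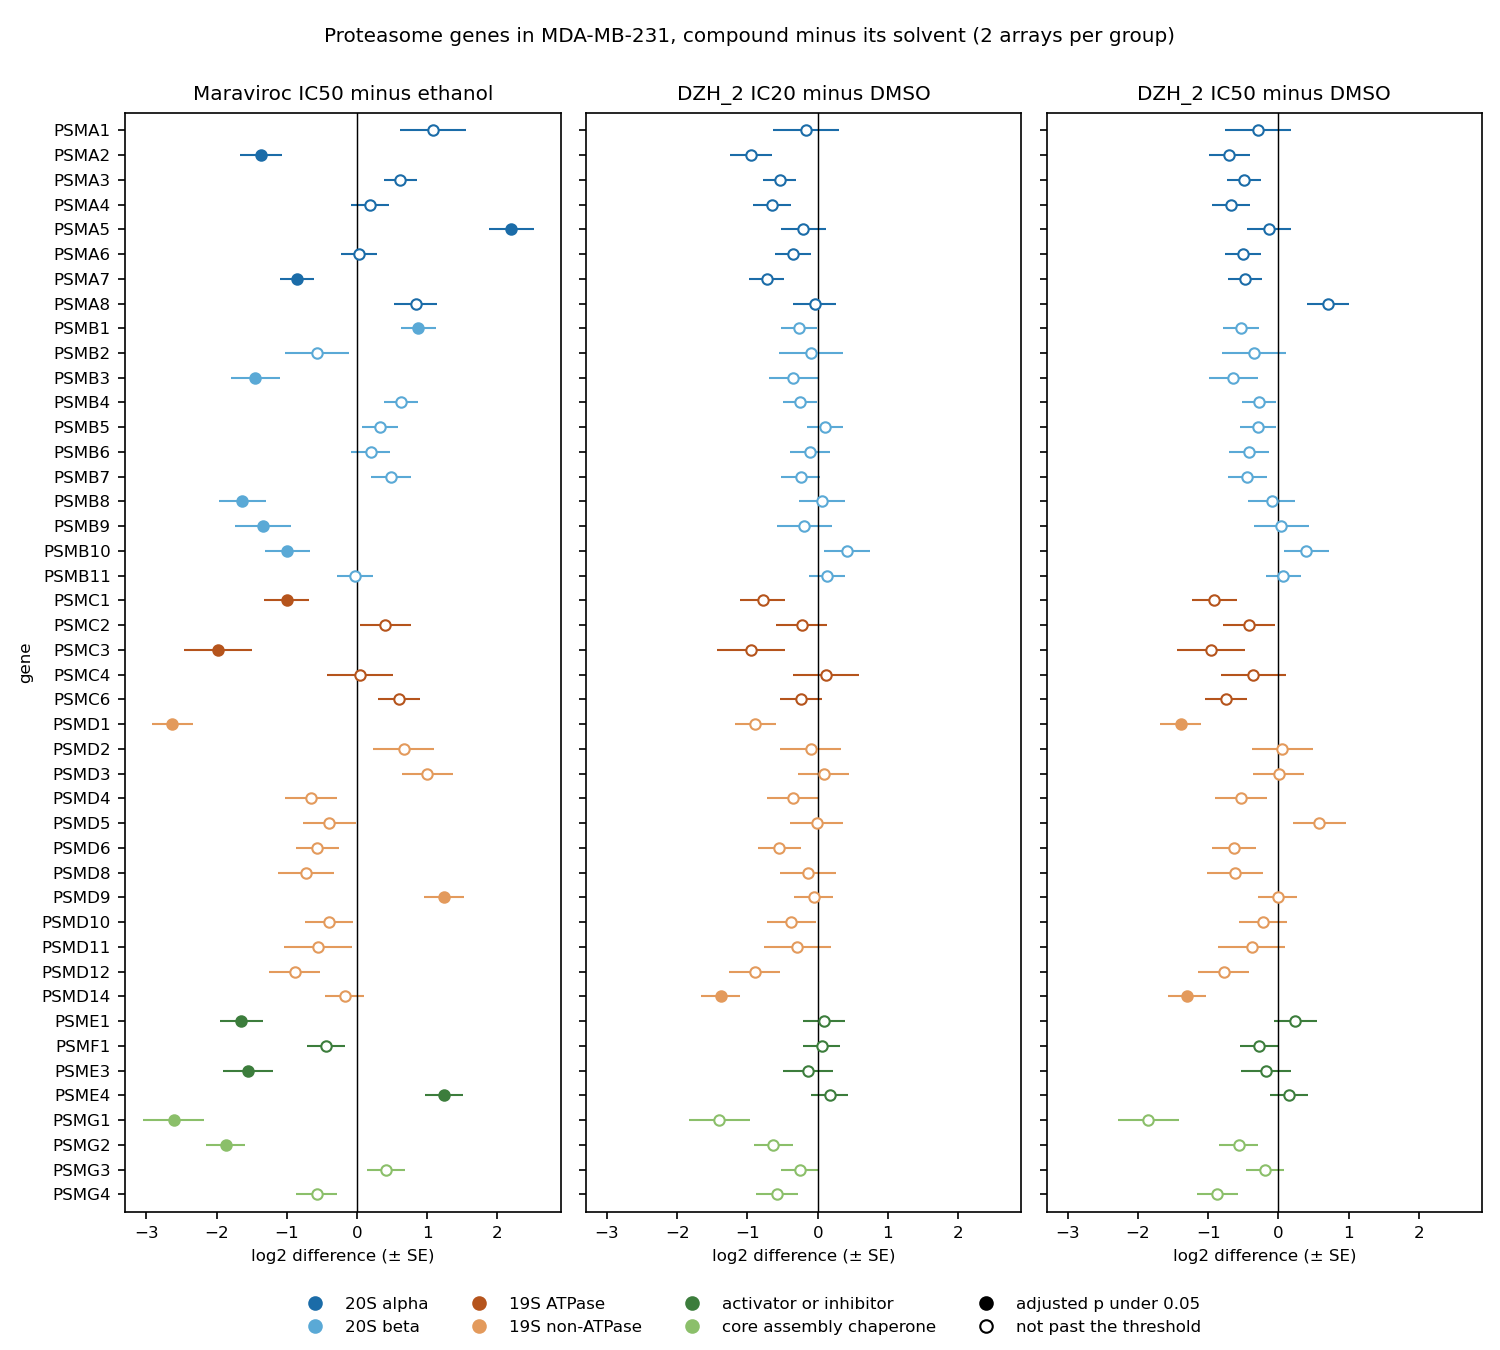
Log2 difference ± SE (x axis) of the 44 proteasome genes (y axis) for Maraviroc IC50 minus ethanol, DZH_2 IC20 minus DMSO and DZH_2 IC50 minus DMSO in MDA-MB-231, 2 arrays per group, coloured by particle, with filled points past an adjusted p of 0.05. Filled points number 17, 1 and 2, and in the DZH_2 panels 35 of 44 genes lie left of 0.

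Whether the compounds differed was tested as the difference of their differences from solvent, at matched IC labels and for 2 pairs of groups. At IC50, PSME1 was relatively higher with DZH_2 by 1.89 ± 0.42 (adjusted p = 0.0203), and PSMA5 and PSMB1 relatively lower, at -2.33 ± 0.45 (adjusted p = 0.00967) and -1.41 ± 0.36 (adjusted p = 0.0363). These 3 of 44 members stand beside 6.17% of all genes, 4.02% higher and 2.15% lower. PSMA5 read 11.61 and 11.47 with DZH_2 IC50, against 11.59 and 11.76 with DMSO, groups that lay close together. The inducible PSMB8, PSMB9 and PSMB10 differed between compounds by 1.54, 1.38 and 1.39 without passing (adjusted p = 0.0748, 0.182 and 0.0965). PSMD1, which fell with each compound, differed by 1.24 between them and did not pass. The members' median was 0.01 in the main fit, 0.25 without Maraviroc IC50 replicate 1 and -0.58 without its replicate 2. Over all genes it was -0.03, -0.02 and -0.01. With any other compared array left out the members' median ran from -0.14 to 0.02. With the compared arrays alone 1 member passed, where 707 of all genes did. The calls of PSMA5, PSME1 and PSMB1 were lost under 1, 6 and 9 of 16 alternatives.

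At IC20 no member passed, where 0% of all genes did, and 3 members, against 1273 of all genes, had an unadjusted p under 0.05. PSMD14 came nearest at -1.47 (95% interval -2.32 to -0.63, adjusted p = 0.475), which does not show that the compounds act alike. Ethanol and DMSO themselves gave 0 members and 0% of all genes past the threshold, with 1 member, PSMC6 at -0.66, and 1352 of all genes under an unadjusted p of 0.05. PSMB9 was 0.79 and PSMB10 0.56 higher with ethanol, which did not pass (adjusted p = 0.679 and 0.742). PSMD14 read 11.06 and 10.68 with ethanol, against 11.47 and 11.39 with DMSO, and did not pass either.

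In MCF10, with 1 array per group and so no test, more members lay lower than higher with DZH_2. At both doses 22 of 44 members lay below both the DMSO and the untreated array, 50%, where 22.9% of all genes did, and 8 lay above both, 18.2%, where 23.7% did. Of 19 core genes 12 lay below and 3 above, and the beta ring had 8 of 11 genes below. Of 4 activator or inhibitor genes 3 lay below and 1, PSME4, above. Members' medians were -0.76 at IC20 and -0.67 at IC50 from DMSO, against 0.02 and 0.01 over all genes, and 0.01 for untreated minus DMSO. By at least 1 at both doses, 5 members were lower and 3 higher, where 4.88% and 4.52% of all genes were. Between the untreated and the DMSO array no member differed by at least 1, where 1464 of 17687 genes did.

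Of the 5 lower genes PSME1 lay furthest below DMSO at both doses. It read 8.66 with DZH_2 IC20 and 9.96 with DZH_2 IC50, against 12.20 with DMSO and 12.38 untreated. The other 4 were beta subunits or an ATPase. PSMB3 read 10.27 and 11.70, against 13.10 with DMSO and 13.23 untreated. PSMB5, the constitutive chymotrypsin-like subunit, read 10.15 and 10.66, against 12.15 with DMSO and 11.96 untreated. PSMB2 differed by -2.13 and -1.22 from DMSO and PSMC3 by -1.34 and -1.27. In each of the 5 the IC20 array lay further from DMSO than the IC50 array. PSMG1 was the lowest member at IC50, at -2.62, but differed by -0.25 at IC20.

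The 3 higher genes were PSMC6, PSMA4 and PSME4. PSMC6, an ATPase, read 8.46 with IC20 and 8.26 with IC50, against 6.16 with DMSO, near the negative controls, and 6.45 untreated. PSMA4 read 10.10 and 9.78, against 8.71 with DMSO and 8.84 untreated, and PSME4 8.51 and 8.55, against 7.47 and 8.02. The remaining catalytic genes lay between, with PSMB6 at 0.34 and 0.30 and PSMB7, PSMB8, PSMB9 and PSMB10 between -1.39 and -0.34. Of these, PSMB10 lay near the negative controls on every MCF10 array. Line markers moved on the same arrays: 4 of 7 epithelial markers, S100A2, KRT5, TRIM29 and ITGB4, were at least 1 lower at both doses, with S100A2 at -3.54 and -4.04. The log2 summed signal of the 7 was 14.06 and 13.23, against 15.99 with DMSO and 16.23 untreated, with CDH1, EPCAM and KRT14 near the negative controls on all 4 arrays. Mesenchymal markers summed to 17.27 and 17.81, against 18.01 and 18.11. Their part in the proteasome values was not tested. With the arrays quantile normalised, 5 members were past the limit, 2 higher and 3 lower, with median centring 1 was higher and 7 lower, and with the mean of DMSO and untreated as control 2 were higher and 7 lower.

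**Figure D4:**
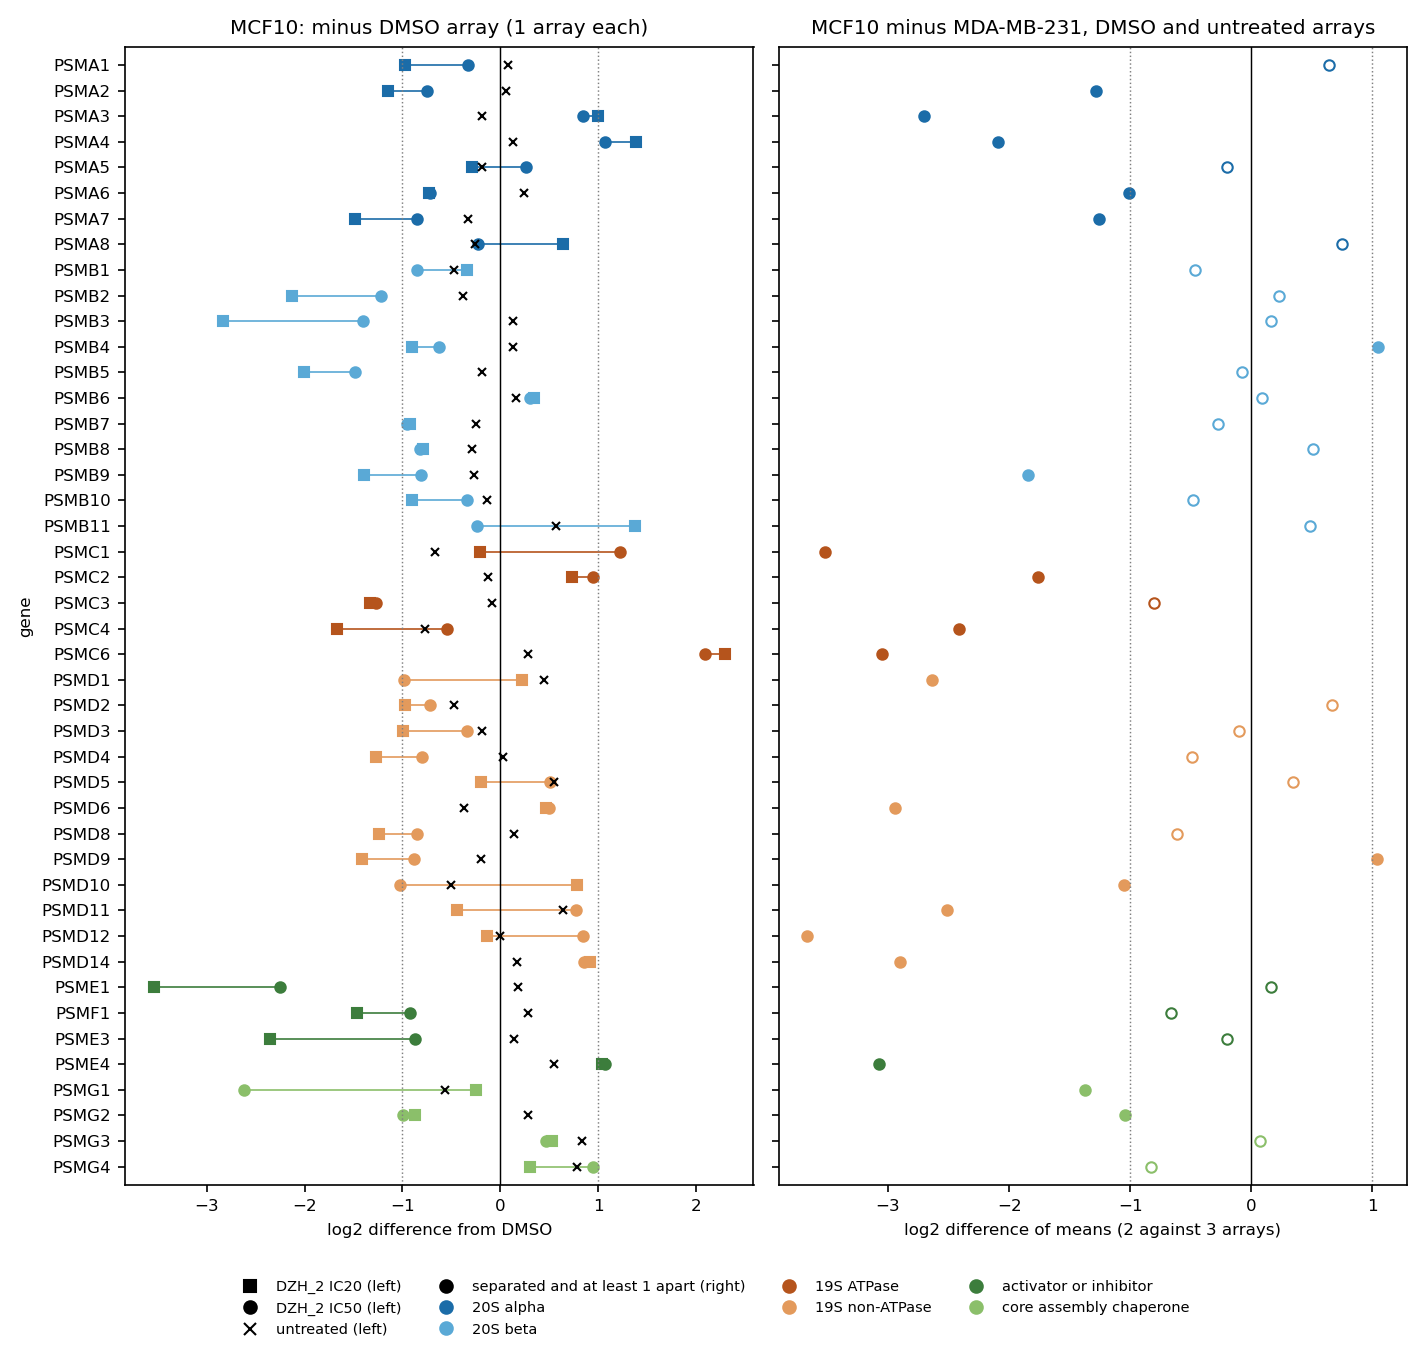
Log2 differences (x axes) of the 44 proteasome genes (y axis): on the left DZH_2 IC20, DZH_2 IC50 and untreated minus the DMSO array of MCF10, 1 array each, and on the right the mean of 2 MCF10 control arrays minus the mean of 3 MDA-MB-231 control arrays, with dotted lines at -1 and 1. PSME1 lies lowest on the left at -3.54, and PSMD12 lowest on the right at -3.67.

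Some genes answered DZH_2 in opposite directions in the cell lines. PSMA3, PSMA4, PSMC2, PSMD6 and PSMD14 lay below both DMSO arrays on all 4 DZH_2 arrays of MDA-MB-231 and above DMSO and untreated on both DZH_2 arrays of MCF10, 5 members where 3.26% of all genes did. PSMD14 averaged 10.09 with DZH_2 and 11.43 with DMSO in MDA-MB-231, and 9.29 with DZH_2 and 8.49 in the controls in MCF10. PSMA4 averaged 10.15 and 10.81 in MDA-MB-231, and 9.94 and 8.78 in MCF10, in the same order. The treated means of these genes thus lay closer together across the lines than the control means. PSMB10 showed the reverse, where 3.18% of all genes did, but it lay near the negative controls on every MCF10 array. Below in both lines were 8 members, PSMA2, PSMA6, PSMA7, PSMB3, PSMB4, PSMB7, PSMC3 and PSMG2, where 3.75% of all genes were, and none was above in both, where 4.36% were. PSMB7 lay below DMSO in MDA-MB-231 but around the untreated array, with 13.71, 13.88, 13.39 and 13.79 on the DZH_2 arrays, against 13.68 untreated. The difference between lines was not tested.

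**Figure D5:**
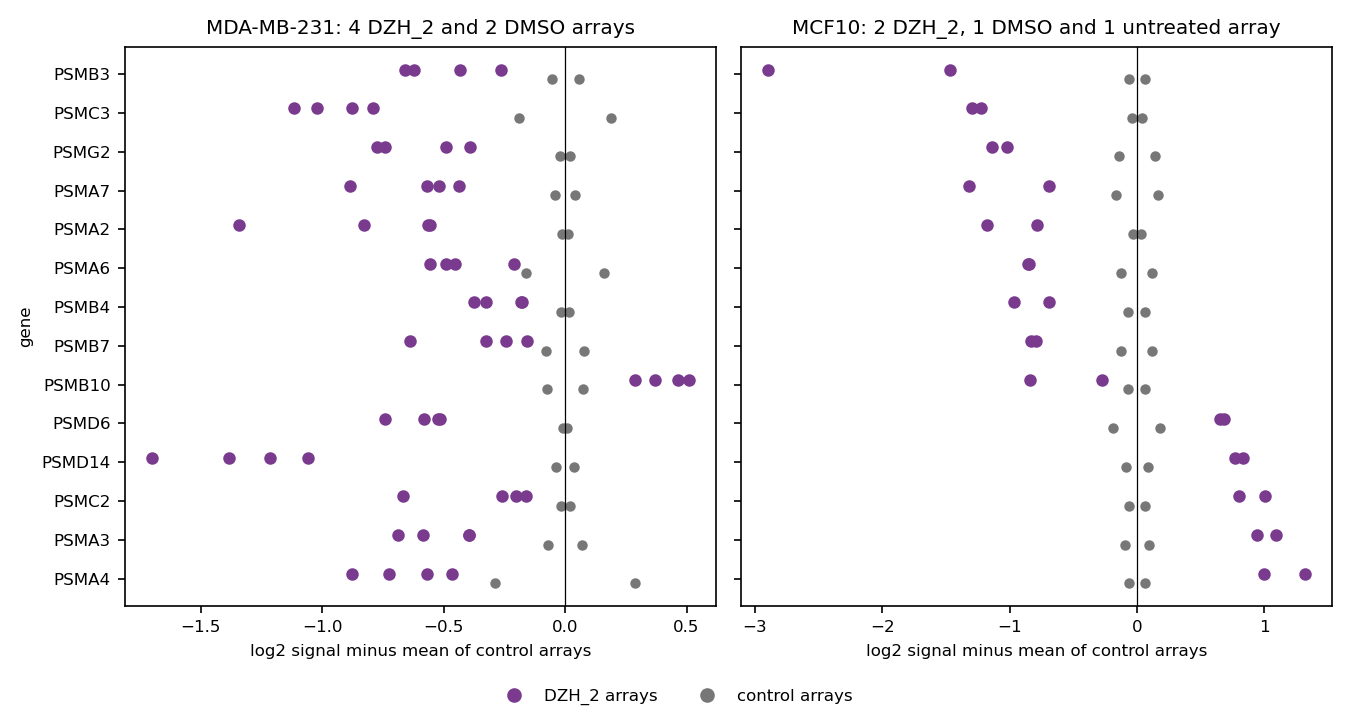
Log2 signal minus the mean of those DMSO or DMSO and untreated arrays (x axes) for the 14 proteasome genes (y axis) whose DZH_2 arrays all lay to a side of both DMSO arrays in MDA-MB-231 (left) and of the DMSO and untreated arrays in MCF10 (right), with single arrays as points. From PSMD6 down, 5 genes lie left of DMSO in MDA-MB-231 and right of the controls in MCF10.

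Without compound, most of the regulatory particle genes were lower in MCF10 than in MDA-MB-231, and most of the beta ring was not. Of the members, 19 were lower and 2 higher in MCF10 controls than in MDA-MB-231 controls, by at least 1 and with no overlap between the 2 and 3 arrays, where 23.9% and 12.6% of all genes were. Lower were 10 of 17 genes of the 19S particle, 5 of 8 alpha genes, 1 of 11 beta genes, PSME4, PSMG1 and PSMG2. The 6 lowest were PSMD12 at -3.67, PSMC1 at -3.52, PSME4 at -3.08, PSMC6 at -3.05, PSMD6 at -2.94 and PSMD14 at -2.90. PSMD12, a lid subunit, read 7.93 and 7.93 in MCF10 controls, against 11.80, 11.35 and 11.64 in MDA-MB-231. Among beta genes the immunoproteasome subunit PSMB9 was the lower one, at -1.84, and PSMB5, PSMB6 and PSMB7 differed by -0.07, 0.09 and -0.28. PSMB4 and PSMD9 were higher by 1.05 and 1.04. No test was made, since each MCF10 group has 1 array. The MCF10 arrays had a narrower spread over genes, with interquartile ranges of 3.34 to 3.62, against 4.05 to 4.65 in MDA-MB-231. Under quantile normalization the split was 4 higher and 13 lower, and under median centring 5 higher and 13 lower.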

How the data were processed

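Gene expression was measured on Affymetrix arrays, with biotinylated cRNA made from Trizol-extracted total RNA per the labels' protocols. The authors deposited 1 log2 signal for each of 24351 probe sets on 17 arrays; the log2 scale was inferred from the values, and the sources used here do not say how the authors summarised, background-corrected and normalised them or which genome build the array follows. The platform annotation gave 1 gene symbol for 17709 probe sets, no gene for 3739, and 2903 were controls. Where several probe sets read a gene (20 genes), that with the highest mean was kept, which left 17687 genes. "Near the negative controls" means a group mean below the 75th percentile of 612 negative control probe sets.

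One limma model (version 3.58.1) held 12 MDA-MB-231 arrays, those of the 6 groups with replicates (R 4.3.3; lmFit, contrasts.fit, eBayes; 6 residual degrees of freedom), without a replicate block, and gave 9 comparisons, each two-sided with Benjamini-Hochberg adjustment over all genes and a threshold of 0.05. This pools the spread over groups, although the Maraviroc IC50 replicates spread more. The labels do not say whether replicates were separate cultures, so the p-values reflect only array-to-array spread, which may be technical. Array number, not counting depth, limits precision. MCF10 arrays have no replicate and were compared by value, with a limit of 1. The fit was tested on simulated data. Figures were drawn with matplotlib 3.10.9.

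The members and lists were chosen with earlier results of these data known. Named are members past the threshold, the 4 with the smallest p where fewer than 4 passed, the catalytic and activator genes, up to 4 genes per partner list, and in MCF10 the most extreme members. Alternatives were quantile normalization, median centring, a low-signal filter, an eBayes trend, array weights, a replicate block, mean of probe sets, compared arrays alone, other controls and each array left out. Promoters are RefSeq's (GRCh38.p14), matched by Entrez gene identifier for 38 of 44 members, with no entry for the other 6. A gene with several listed promoters was counted as holding a motif if any of them did. The printed sequence is the first listed.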

Additional observations from a re-analysis of the deposited data

Results flagged for a closer look

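In 6 proteasome genes every DZH_2 array lay to one side of both DMSO arrays in MDA-MB-231 and to the opposite side of the DMSO and untreated arrays in MCF10. The difference between lines, as the DZH_2 mean minus the mean of these arrays in MDA-MB-231 less the same in MCF10, was -2.14 for PSMD14, -1.82 for PSMA4, -1.53 for PSMA3, -1.26 for PSMD6, -1.23 for PSMC2 and 0.97 for PSMB10. PSMB10 lay near the negative controls on every MCF10 array. These differences were not tested, because each MCF10 group has 1 array.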

How the results depend on the processing

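Comparisons with 0 members past the threshold kept 0 under every alternative that held both arrays of each compared group (Maraviroc IC20 against ethanol, DZH_2 IC50 against IC20, DZH_2 against Maraviroc at IC20, ethanol against DMSO). In those fits at most 4 of all genes passed, so the 0 says little about the proteasome genes in particular. For Maraviroc IC50 against ethanol the count of 17 was 8 with the compared arrays alone and 11 to 23 with an array left out; all genes split 2122 higher and 2656 lower as deposited, 3018 and 2308 with median centring, and 2520 and 2339 with quantile normalization. Against IC20 the 17 were 8 with the compared arrays alone, where 2632 of all genes passed. With an array left out the members' median ran from -0.47 to 0.07, against 0.09 to 0.11 over all genes. For DZH_2 IC20 the 1 member was 0 with an eBayes trend and 2 with array weights. It was 2 without the Maraviroc IC50 arrays and 3 with all 5 control arrays. All genes passing numbered 154 in the main fit and 125, 488, 495 and 419 in these. With an array left out the members' median ran from -0.35 to -0.15. For DZH_2 IC50 the 2 members were 0 with quantile normalization, 0 with a trend, and 3, with PSMG1, under each of 5 others. All genes passing numbered 277 in the main fit, 222 and 225 under the first 2, and 314 to 942 under the 5. With an array left out the members' median ran from -0.47 to -0.31. For DZH_2 against Maraviroc at IC50 the 3 were 1 with the compared arrays alone and 0 to 12 with an array left out. MCF10 with DZH_2 gave 8 members, 5 with quantile normalization and 26 with a limit of 0.5; MCF10 against MDA-MB-231 gave 21, and 11 with a limit of 2 (both limits chosen after seeing the data). The causes were not tested. A replicate block gave 5 for DZH_2 against Maraviroc at IC50, where 1172 of all genes passed. It gave 18, 19, 1 and 2 for the other nonzero tests, where 4821, 4776, 204 and 347 did. Deviations of same-numbered arrays correlated between -0.15 (Maraviroc IC20 and DZH_2 IC50) and 0.30 (DZH_2 IC50 and IC20) over 15 pairs of groups. Not every pair was above 0.1. Whether the replicate numbers mark shared batches was not tested. Of 2447 recomputed values for named genes, 2232 kept direction and side of the threshold, 126 fell short of it, 30 newly passed, 59 uncalled values changed sign, and 0 called ones did.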
